A study of Mus musculus with 4 samples.

Results

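The genes considered here encode the laminins of the vascular basement membrane, the integrins and dystroglycan that bind it, and the proteins that assemble, cut and crosslink it. They were taken from a list of 46 gene symbols and looked up by symbol in the table of expression values, which holds 12693 gene symbols. The table lists 43 of the 46, and *Fbn1*, *Itgb3* and *Lox* are not among its symbols. Every listed gene has at least 1 read in each sample, so an unlisted gene may still have had reads in some samples. All 43 reached the minimum mean of 10 normalized counts and were tested. RNA was sequenced from brain cells sorted for CD31, a surface protein of endothelial cells (ECs), of the cortex of C57BL/6 mice at embryonic day 18. The wild-type group has 2 samples, and so has the *Foxq1* conditional knockout (cKO) group, in which a floxed *Foxq1* allele (FOXQ1fl/fl) was deleted by Cre driven from the Tie2 promoter. The labels give the genotype of the controls as WT, and the study's methods describe controls as littermates without Cre, so whether they carried the floxed allele is not given. Tie2-Cre acts in endothelium and also in blood lineages, and FOXQ1 is a forkhead transcription factor of brain ECs. Nothing in the labels says whether a sample is 1 embryo or a pool, so the spread between samples of a group may be partly technical. In addition, fewer cells of a type and less RNA per cell cannot be told apart in such bulk samples. Transcripts of pericytes were abundant in all 4 samples beside those of ECs, so the values are those of the sorted samples and not of ECs alone.

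Brain capillaries rest on a basement membrane that ECs and pericytes share and that astrocyte endfeet cover on the outer side. Laminins are trimers of an α, a β and a γ chain that polymerize into a sheet. Nidogens, perlecan and agrin tie this sheet to collagen IV and to the cell surface, and integrins and dystroglycan are the receptors that hold cells to it. Endothelial laminins are built on the α chains encoded by *Lama4*, which is laid down early, and *Lama5*, which accumulates as vessels mature, whereas *Lama2* is known for astrocyte and pericyte laminin and *Lama1* for laminin of the pial surface. Metalloproteinases cut the matrix, TIMP proteins inhibit them, and enzymes of the lysyl hydroxylase and lysyl oxidase families modify and crosslink collagen.

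Values are normalized counts, that is, reads counted on a gene divided by 1 size factor per sample. The listed genes were covered by 21466436 and 17901203 reads in wild-type, against 15827166 and 16963866 reads in *Foxq1* cKO samples. The 43 members took 1.84% and 1.71% of these reads in wild-type, against 1.6% and 1.54% in *Foxq1* cKO samples, with a median of 1831, 1609, 1314 and 1470 reads per member. Fold changes are differences of mean log2 (normalized count + 1), and the limma fit took in all 12472 genes that reached a mean of 10. Adding 1 pulls the change of low genes toward 0. A single low sample, however, moves a mean of logs more than it moves a ratio of means, so values of low genes can also be larger than in DESeq2. With 2 samples in each group, the smallest two-sided p of an exact permutation test of a single gene is 0.333. *Foxq1* itself had 353 and 297 normalized counts in wild-type, against 5.44 and 32.6 in *Foxq1* cKO samples, from 419, 298, 5 and 32 reads. The targeted transcript was thus lower in both samples labelled cKO, at a log2 fold change of -4.47 (SE 1.04, unadjusted p = 0.00507).

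Among the 43 members, 5 were lower and 1 was higher in *Foxq1* cKO samples at an unadjusted p under 0.05. The lower genes were *Lama4*, *Nid2*, *Fn1*, *Fbln2* and *Sparc*, and the higher gene was *Lama5*. Of all genes tested, 5.22% passed this threshold, 3.05% with a lower and 2.17% with a higher value. The members passed it in 14.0% of cases, 11.6% lower and 2.33% higher. These 6 were all among the 25 members with a mean of at least 1000 normalized counts, and in that range of level, chosen after the values were seen, 6.61% of all genes passed and 4.66% passed as lower. After Benjamini-Hochberg adjustment over all genes, 0% passed in limma, where the adjusted p of these 6 was 0.857. On the recovered reads DESeq2 called 0.465% of all genes at an adjusted p under 0.05, and *Fn1* was the member among them. The 6 calls also rested on how the spread was estimated. With eBayes without a trend *Lama5* and *Fbln2* passed, and with no moderation *Nid2* and *Fbln2* did, together with *Agrn*. The median log2 fold change was -0.10 over the members and 0.01 over all genes tested. For 13 members both *Foxq1* cKO samples lay under both wild-type samples, which is 30.2% against 18% of all genes tested. For 6 members both lay above them, which is 14.0% against 18% of all genes. Among genes with a mean of at least 1000, 36% of the members and 23.5% of all genes were lower in both cKO samples, and 12% of the members and 15.7% of all genes were higher.

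**Figure D1:**
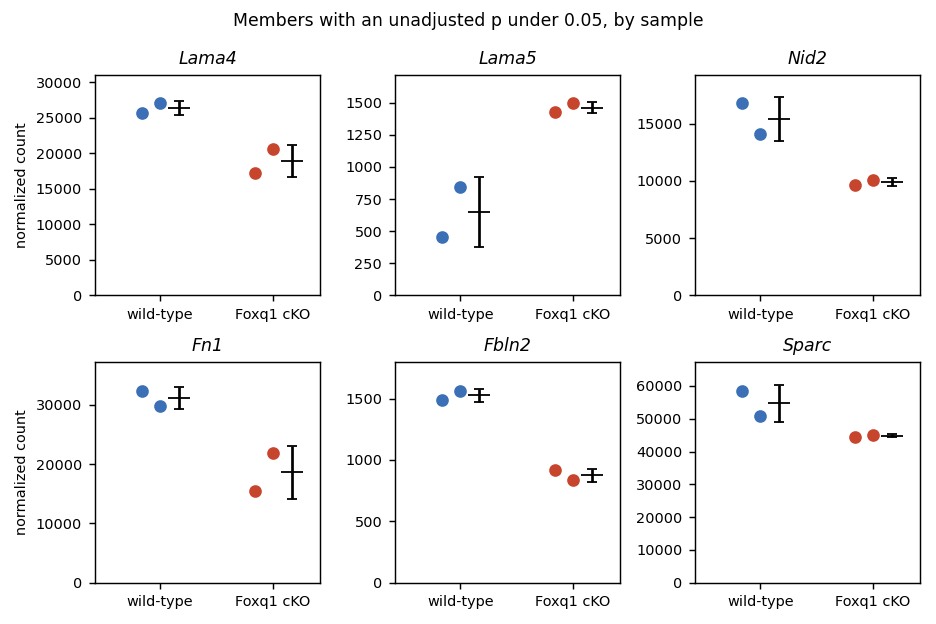
Normalized counts (vertical axes, from 0) of the 6 members with an unadjusted p under 0.05 in each wild-type (blue) and *Foxq1* cKO (red) sample, with the mean and SD of each group in black. The groups do not overlap in any panel, and *Lama5* is the gene with higher values in *Foxq1* cKO samples.

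The members that passed lie in the laminin network, its linkers and the matrix glycoproteins. No receptor, protease, inhibitor or crosslinking enzyme of the list passed, but 5.22% of all genes did, and the roles were not tested against each other. FOXQ1 is a forkhead factor. The promoters of members that differed were read on both strands for TGTTTA, a core of forkhead proteins in general, and for GTTTC, the letters the study names for FOXQ1 itself, which TGTTTA does not contain. RefSeq windows of 250 bases before to 50 bases from the start site (build GRCm38.p6) were at hand for 30 of the 43 listed members, and for 3 of the 6 that passed. *Lama5* (chr2:180225810-180226109, minus strand), *Fbln2* (chr6:91212514-91212813, plus strand) and *Sparc* (chr11:55420031-55420330, minus strand) are printed 5′ to 3′ on the strand of the gene, and capitals mark TGTTTA.
Lama5: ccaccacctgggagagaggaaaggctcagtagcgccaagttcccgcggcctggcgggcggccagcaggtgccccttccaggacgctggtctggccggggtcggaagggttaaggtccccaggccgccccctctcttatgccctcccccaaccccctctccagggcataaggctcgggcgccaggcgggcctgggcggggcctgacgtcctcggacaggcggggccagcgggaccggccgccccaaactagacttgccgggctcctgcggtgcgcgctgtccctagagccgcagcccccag
Fbln2: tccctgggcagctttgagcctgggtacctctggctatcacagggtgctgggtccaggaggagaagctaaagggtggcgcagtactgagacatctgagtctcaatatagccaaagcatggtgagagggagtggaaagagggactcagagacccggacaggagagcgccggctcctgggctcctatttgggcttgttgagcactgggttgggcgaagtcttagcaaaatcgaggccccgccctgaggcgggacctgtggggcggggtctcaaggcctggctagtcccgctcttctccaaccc
Sparc: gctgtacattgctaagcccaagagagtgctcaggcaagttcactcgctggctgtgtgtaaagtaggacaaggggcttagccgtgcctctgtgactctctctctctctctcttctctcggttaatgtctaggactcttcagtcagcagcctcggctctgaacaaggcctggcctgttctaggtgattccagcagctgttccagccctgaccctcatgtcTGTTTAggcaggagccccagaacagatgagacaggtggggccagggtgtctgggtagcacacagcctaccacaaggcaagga
TGTTTA was found once in the *Sparc* window, where it begins 32 bases before the start site, and in neither of the other windows. Among the 30 members with a window, *Itgav*, *Timp3* and *Sparc* held it, and 13.4% of the 32851 windows of all genes did. GTTTC, searched after the values were seen, was in none of the 3 printed windows, in those of 13 of the 30 members (43.3%) and in 45.0% of all windows. A match is a description of the letters and no evidence of a bound site, and no match says only that they are not in this window. The windows also differed in base composition. GC content was 72.7% for *Lama5* with 24 CpG dinucleotides, 60.3% for *Fbln2* with 10 and 55.3% for *Sparc* with 4, and the median was 52.7% with 7 over all windows and 63.8% with 18.5 over the 34 windows of listed members.

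Among the laminin α chains, *Lama4* was lower and *Lama5* was higher in *Foxq1* cKO samples. *Lama4* had 25693 and 27035 normalized counts in wild-type, against 17293 and 20542 in *Foxq1* cKO samples. Both cKO samples lay well under the wild-type samples, and averaged 71.8% of wild-type. The log2 fold change was -0.48 (SE 0.13, 95% interval -0.79 to -0.18, unadjusted p = 0.00840). *Lama5* had 458 and 842 normalized counts in wild-type, against 1430 and 1495 in *Foxq1* cKO samples. The cKO samples agreed closely with each other, whereas the wild-type samples differed by 1.84-fold. The mean was 2.25-fold that of wild-type, at a log2 fold change of 1.23 (SE 0.38, 95% interval 0.32 to 2.15, unadjusted p = 0.0165). *Lama5* did not pass when *Foxq1* cKO replicate 1 (1.27) or replicate 2 (1.20) was left out, and its log2 fold change dropped to 0.80 without wild-type replicate 1. *Lama4* did not pass without *Foxq1* cKO replicate 1 (-0.36).

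The remaining α chains did not pass the threshold. *Lama1* had 808 and 1720 normalized counts in wild-type, against 519 and 635 in *Foxq1* cKO samples, and its log2 fold change of -1.04 (SE 0.44) had an unadjusted p of 0.0559 in limma and 0.0126 in DESeq2. The wild-type samples were 2.13-fold apart. *Lama2* had 464 and 533 normalized counts in wild-type, against 908 and 699 in *Foxq1* cKO samples, both above wild-type, with a log2 fold change of 0.68 (SE 0.36, unadjusted p = 0.108). The α chains thus had values on both sides of 0.

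To compare levels between chains, normalized counts were divided by the length of the annotated exons in kilobases. *Lama4* was the most abundant laminin transcript at 2129 and 2240 normalized counts per kb in wild-type, against 1433 and 1702 in *Foxq1* cKO samples. It made up 93.3% and 88.7% of the summed level per kb of the α chains in wild-type, against 85.9% and 87.7% in *Foxq1* cKO samples. *Lama5* made up 1.76% and 2.93% in wild-type, against 7.53% and 6.76% in *Foxq1* cKO samples. *Lama4* therefore remained the main α chain in every sample. The ratio of *Lama4* to *Lama5* per kb was 53.0 and 30.3 in wild-type, against 11.4 and 13.0 in *Foxq1* cKO samples. This ratio was formed after the single values had been seen and carries no test. *Lama1* made up 3.66% and 7.04% in wild-type against 3.22% and 3.38%, and *Lama2* made up 1.25% and 1.29% against 3.33% and 2.2%.

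**Figure D2:**
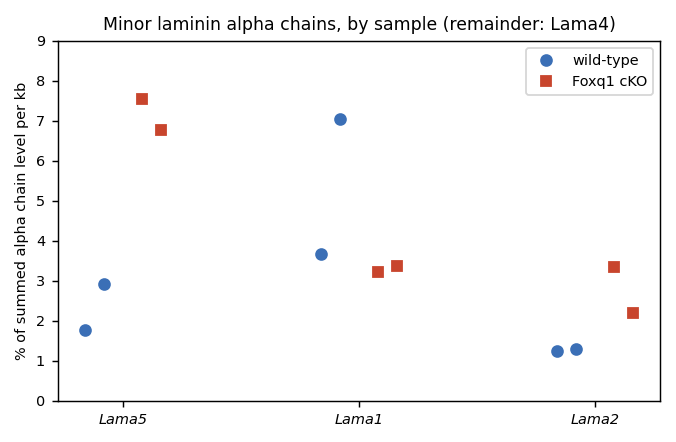
Share of the summed α chain level per kb (vertical axis, percent) taken by *Lama5*, *Lama1* and *Lama2* in each wild-type (blue circles) and *Foxq1* cKO (red squares) sample; the rest is *Lama4*. The share of *Lama5* was 1.76% and 2.93% in wild-type, against 7.53% and 6.76% in *Foxq1* cKO samples.

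The β and γ chains, which complete the trimer, had no member past the threshold. *Lamb1* had 16522 and 13742 normalized counts in wild-type, against 13946 and 9287 in *Foxq1* cKO samples, and the groups overlapped (log2 fold change -0.40, SE 0.22). *Lamb2* ran from 6798 to 9751 in wild-type and from 5675 to 7611 in *Foxq1* cKO samples, and *Lamc1* from 6714 to 9299 and from 5704 to 7765, both with overlap. Their log2 fold changes were -0.31 (SE 0.23) and -0.25 (SE 0.23). *Lamc3*, a γ chain of less common laminins, had 1543 and 1604 normalized counts in wild-type, against 2227 and 1777 in *Foxq1* cKO samples, at 0.34 (SE 0.24, unadjusted p = 0.200). Summed over the 8 chains, laminin transcripts came to 61586 and 61942 normalized counts in wild-type, against 49764 and 47750 in *Foxq1* cKO samples. The median log2 (normalized count + 1) over these chains was 11.66 and 11.73 in wild-type, against 11.80 and 11.64 in *Foxq1* cKO samples, and overlapped. Of the 8, 3 were higher and 2 lower in both cKO samples, where each arrangement was seen for 18% of all genes tested, and 3 overlapped.

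In the order of mean level per kb, *Lama4* was followed by *Lamb1*, *Lamb2*, *Lamc1*, *Lamc3*, *Lama1*, *Lama5* and *Lama2*. Over all samples the ranges of *Lamc1* and *Lamc3*, and of *Lamc3* and *Lama1*, lay apart, and every other pair of neighbours overlapped. Within wild-type *Lama1* lay above *Lama5*, at 83.5 and 178 against 40.2 and 74.0 per kb. In *Foxq1* cKO samples the order of the means was the other way round, at 53.6 and 65.6 for *Lama1* against 126 and 131 for *Lama5*.

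**Figure D3:**
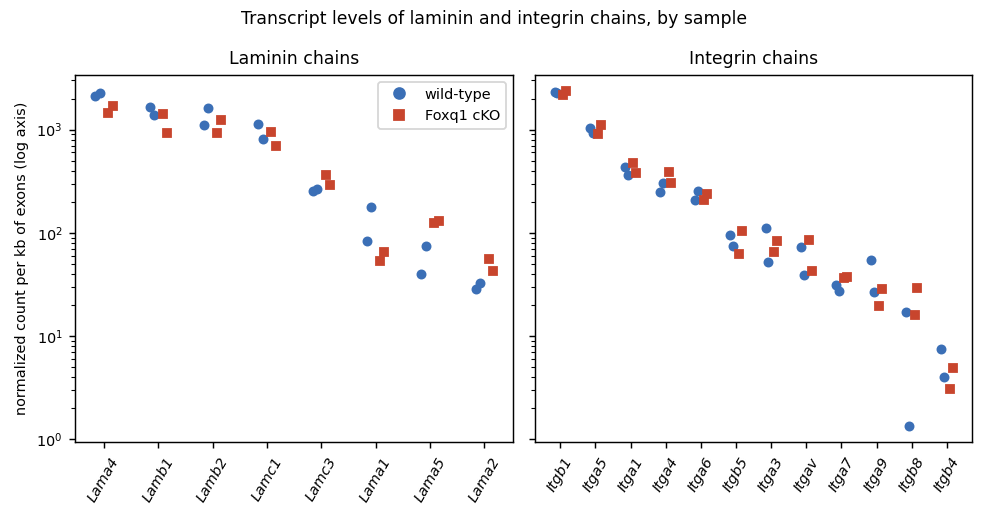
Normalized counts per kb of exons (vertical axis, log scale) of the 8 laminin chains and the 12 integrin chains listed, each in order of its mean, in wild-type (blue circles) and *Foxq1* cKO (red squares) samples. *Lama4*, *Lamb1*, *Lamb2* and *Lamc1* head the laminins, *Itgb1* and *Itga5* head the integrins, and the low integrin chains scatter most.

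Of the linkers between laminin, collagen IV and the cell surface, *Nid2* was lower in *Foxq1* cKO samples. *Nid2*, which encodes nidogen-2, had 16765 and 14076 normalized counts in wild-type, against 9677 and 10119 in *Foxq1* cKO samples. The cKO mean was 64.2% of wild-type and the groups were far apart relative to their spread, with a log2 fold change of -0.63 (SE 0.14, 95% interval -0.97 to -0.30, unadjusted p = 0.00370). The adjusted p was 0.0665 in DESeq2. *Nid2* shares 437 bp of exon with *Rtraf* on the opposite strand, which is 8.45% of its exon length, and whether counting used the strand is not given in the sources used here. *Nid1*, its close relative, had 22914 and 21924 normalized counts in wild-type, against 21666 and 20537 in *Foxq1* cKO samples, a log2 fold change of -0.09 with a 95% interval of -0.35 to 0.17. The ratio of *Nid1* to *Nid2* per kb was 1.02 and 1.16 in wild-type, against 1.67 and 1.51 in *Foxq1* cKO samples.

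*Hspg2*, which encodes perlecan, had 7660 and 6534 normalized counts in wild-type, against 5619 and 5646 in *Foxq1* cKO samples. Both cKO samples were lower, and the log2 fold change of -0.33 (SE 0.15) had an unadjusted p of 0.0774. *Agrn*, which encodes agrin, had 15565 and 14748 in wild-type, against 17464 and 17273 in *Foxq1* cKO samples. Here both cKO samples were higher, at a log2 fold change of 0.20 (SE 0.11, unadjusted p = 0.128). Of the 4 linkers 3 lay lower and 1 higher in both *Foxq1* cKO samples, where each arrangement was seen for 18% of all genes tested, and 4 genes are too few to set against that share.

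The glycoproteins that form fibrils in the matrix had a median log2 fold change of -0.57 over the 4 listed. *Fn1*, which encodes fibronectin, a ligand of the integrin built from *Itga5* and *Itgb1*, had 32362 and 29788 normalized counts in wild-type, against 15488 and 21793 in *Foxq1* cKO samples. Both cKO samples lay far under wild-type, although they differed from each other by 1.41-fold. The log2 fold change was -0.76 (SE 0.18, 95% interval -1.19 to -0.33, unadjusted p = 0.00503), and the adjusted p was 0.0413 in DESeq2. *Fbln2*, which encodes fibulin-2, had 1486 and 1564 normalized counts in wild-type, against 914 and 838 in *Foxq1* cKO samples. The samples of each group lay close together, and the log2 fold change was -0.80 (SE 0.26, 95% interval -1.43 to -0.17, unadjusted p = 0.0214). *Fbln2* passed without wild-type replicate 1 and did not pass when any of the other 3 samples was left out, where the log2 fold change lay between -0.86 and -0.74. *Fbln1*, its relative, had 1571 and 1533 against 1336 and 1063 normalized counts, at a log2 fold change of -0.38 (SE 0.26, unadjusted p = 0.189). *Emilin1*, a glycoprotein of elastic fibres, ran from 1550 to 2726 in wild-type around both cKO samples.

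Matricellular proteins modify the contact between cell and matrix without being part of its frame. *Sparc*, a collagen-binding member of this class, had 58575 and 50761 normalized counts in wild-type, against 44568 and 45154 in *Foxq1* cKO samples. Its difference was the smallest of the 6, a log2 fold change of -0.28 (SE 0.10, 95% interval -0.54 to -0.03, unadjusted p = 0.0360). It did not pass 0.05 under quantile normalization (unadjusted p = 0.0973) or in DESeq2 (unadjusted p = 0.0692), nor without wild-type replicate 1 (-0.18), *Foxq1* cKO replicate 1 (-0.27) or *Foxq1* cKO replicate 2 (-0.29). *Sparcl1*, a relative of *Sparc*, was the most abundant member, with 70893 and 57863 normalized counts in wild-type, against 62840 and 51920 in *Foxq1* cKO samples, and the groups overlapped. *Tgfbi* had the largest log2 fold change of the class at 0.77, with an SE of 1.23 and no settled direction. Its cKO mean was 95.1% of wild-type, and the log2 fold change was -0.0711 in DESeq2. Without wild-type replicate 1 the log2 fold change was -1.03, and without wild-type replicate 2 it was 2.57. *Tgfbi* had 37.1 and 461 normalized counts in wild-type, against 161 and 312 in *Foxq1* cKO samples, so that the wild-type samples alone were 12.4-fold apart. *Thbs1*, thrombospondin-1, ran from 102 to 278 in wild-type and from 151 to 196 in *Foxq1* cKO samples, and its log2 fold change was 0.032 in limma and -0.13 in DESeq2.

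None of the 12 integrin chains and dystroglycan passed the threshold, and their median log2 fold change was -0.0026. *Itgb1*, the β chain shared by most laminin, collagen and fibronectin receptors, had 9361 and 9180 normalized counts in wild-type, against 8923 and 9596 in *Foxq1* cKO samples. Its log2 fold change of -0.0026 had a 95% interval of -0.32 to 0.31, so a difference of that size in either direction remains possible. *Itga5*, the α chain of the fibronectin receptor, had 5079 and 4585 against 4441 and 5418 normalized counts, at 0.02 (95% interval -0.41 to 0.46). *Itga6*, the α chain of laminin receptors, had 1896 and 2308 against 1864 and 2154, at -0.06 (95% interval -0.62 to 0.49). *Itga1*, which pairs with β1 to bind collagen, had 8151 and 6806 against 8913 and 7135, at 0.10 (95% interval -0.34 to 0.53). For these 4 integrin chains the samples of both genotypes overlapped.

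Dystroglycan, encoded by *Dag1*, had 4544 and 4095 normalized counts in wild-type, against 4056 and 3760 in *Foxq1* cKO samples. The cKO samples lay just under the wild-type samples, with a log2 fold change of -0.14 (SE 0.17). *Itga4* had 3502 and 4275 against 5449 and 4223 normalized counts, at 0.31 (SE 0.21), with overlap. *Itga7*, a laminin receptor chain known from muscle, had 255 and 221 against 294 and 301 and was the integrin whose cKO samples both lay higher. *Itga3*, *Itga9*, *Itgav*, *Itgb4* and *Itgb5* overlapped between the groups, with log2 fold changes between -0.69 for *Itga9* and 0.19 for *Itgav*.

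The largest fold change of any member was that of *Itgb8*, the partner of αv that activates TGF-β in the developing brain. It had 189 and 15.0 normalized counts in wild-type, against 176 and 320 in *Foxq1* cKO samples. Wild-type replicate 1 lay between the cKO samples, so the log2 fold change of 2.12 (SE 1.26, 95% interval -0.95 to 5.19, unadjusted p = 0.143) rested on wild-type replicate 2, without which it was 0.33. Without wild-type replicate 1 it was 3.90 and passed. In DESeq2 the log2 fold change of *Itgb8* was 1.28. The wild-type samples differed by 12.6-fold.

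Per kb, *Itgb1* was the most abundant integrin chain among the members, between 2186 and 2351 normalized counts per kb over the 4 samples. It made up between 94.5% and 96.6% of the summed β chains of the members. *Itga5* followed with 900.2 to 1098 and made up 41.2% to 49.6% of the summed α chains of the members. The next in order were *Itga1*, *Itga4*, *Itga6*, *Itgb5*, *Itga3*, *Itgav*, *Itga7*, *Itga9*, *Itgb8* and *Itgb4*. *Itgb1* and *Itga5*, *Itga5* and *Itga1*, *Itga6* and *Itgb5*, and *Itgav* and *Itga7* were neighbours whose ranges did not overlap over the 4 samples, and the other neighbours overlapped. The 8 α chains among the members, without *Itga2b*, summed to 2199 and 2002 per kb in wild-type, against 2183 and 2215 in *Foxq1* cKO samples.

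Of the 5 metalloproteinases none passed the threshold, and 4 had log2 fold changes below 0, with a class median of -0.47. *Mmp2*, a gelatinase, had the largest at -0.96 (SE 0.72, unadjusted p = 0.227), with 423 and 468 normalized counts in wild-type, against 439 and 118 in *Foxq1* cKO samples. *Foxq1* cKO replicate 2 was the low sample, and replicate 1 lay within the wild-type range. The log2 fold change of *Mmp2* was -0.020 without *Foxq1* cKO replicate 2 and -1.91 without replicate 1, where it passed, and in DESeq2 it was -0.68, as was that of *Mmp14*. *Mmp14*, the membrane-bound activator of pro-MMP2, had 419 and 640 against 382 and 278 normalized counts, both cKO samples lower, at -0.67 (SE 0.47). *Mmp15* had 754 and 1160 against 1325 and 1084, with overlap. *Adamts1* had 2225 and 2384 against 2251 and 1892, and *Adamts9* had 409 and 289 against 278 and 222.

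The inhibitors *Timp1*, *Timp2* and *Timp3* overlapped between the groups. *Timp3*, the matrix-bound inhibitor and the most abundant of them, had 1545 and 2085 normalized counts in wild-type, against 1461 and 1745 in *Foxq1* cKO samples, at -0.17 (SE 0.26, unadjusted p = 0.544). It shares 21.3% of its exon length with *Syn3* on the opposite strand. *Timp2* ran from 217 to 461 in wild-type and from 291 to 302 in *Foxq1* cKO samples, and *Timp1* was low, between 38.1 and 99.7 in the 4 samples. Among the crosslinking enzymes, *Loxl2*, a lysyl oxidase, had 229 and 202 normalized counts in wild-type, against 270 and 391 in *Foxq1* cKO samples, both higher, at 0.59 (SE 0.53, unadjusted p = 0.309). The log2 fold change of *Loxl2* was 0.32 without *Foxq1* cKO replicate 2 and 0.86 without *Foxq1* cKO replicate 1. *Plod3*, a lysyl hydroxylase, had 518 and 481 against 464 and 430, at -0.16 (SE 0.39), and shares 11.7% of its exon length with *Znhit1*.

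**Figure D4:**
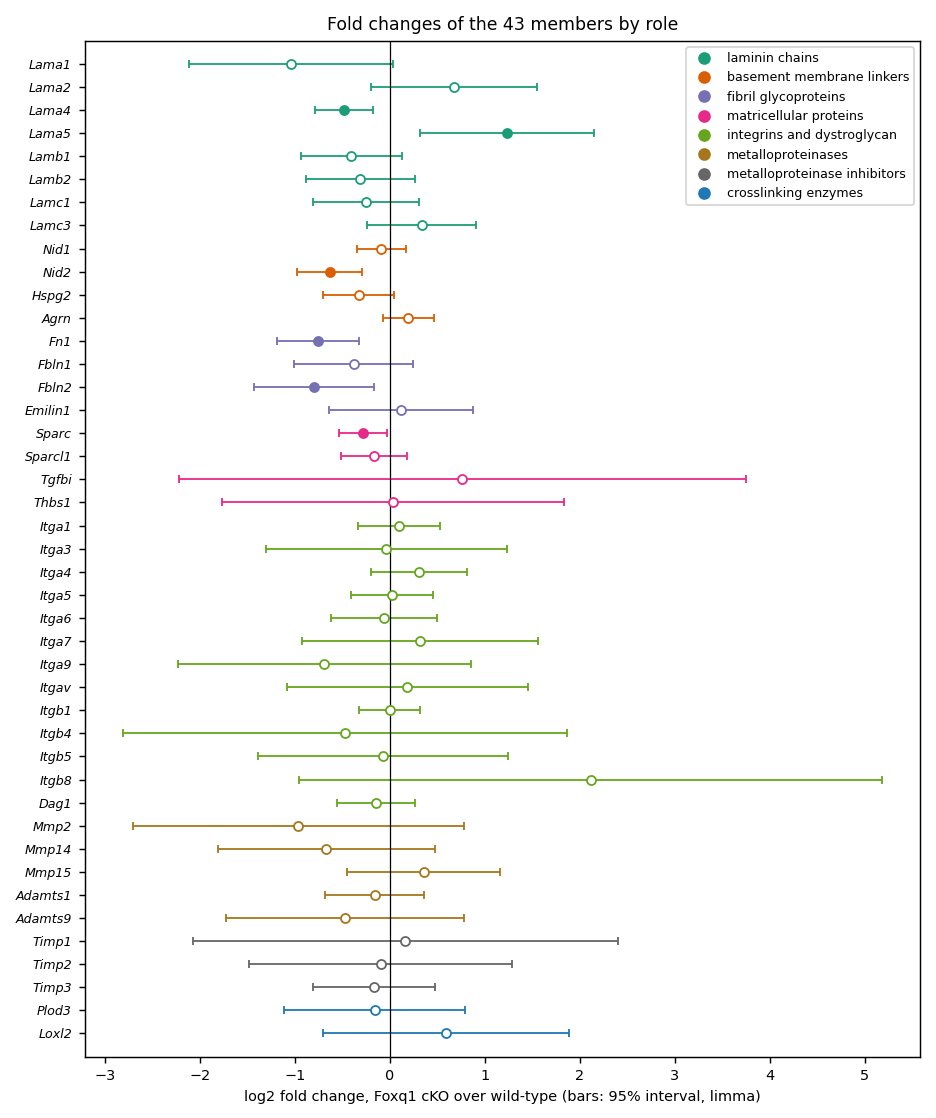
Log2 fold change of *Foxq1* cKO over wild-type (horizontal axis) with its 95% interval from limma for the 43 members, coloured by role; filled points have an unadjusted p under 0.05. The filled points lie among laminin chains, linkers, fibril glycoproteins and matricellular proteins, and the widest intervals belong to low genes such as *Itgb8* and *Tgfbi*.

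Members of low level varied more between samples of 1 genotype. In wild-type, the median ratio of the higher to the lower sample was 1.17 for the 25 members with a mean of at least 1000 normalized counts and 1.72 for the 18 under that level. In *Foxq1* cKO samples it was 1.19 and 1.41. The median SE of the log2 fold change was 0.21 and 0.54 in these classes, so differences in integrins, proteases and inhibitors of low level were resolved less well than those of laminins and linkers.

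Other genes of the adhesion and matrix pathways were read in the same fit. Of 30 genes listed as focal adhesion adaptors, 3 were lower at an unadjusted p under 0.05 and 0 were higher. Of all genes tested, 3.05% were lower and 2.17% higher at this threshold. Such adaptors connect integrins to actin, and *Cav1*, which stands in this list, is a protein of caveolae instead. The lower genes were *Tns1*, a tensin, with 11840 and 10137 normalized counts in wild-type against 6958 and 7385 (log2 fold change -0.61, SE 0.14, unadjusted p = 0.00541), *Cav1*, the main protein of caveolae, at -0.76 (SE 0.23, unadjusted p = 0.0153), and *Tln2*, a talin, at -1.01 (SE 0.34, unadjusted p = 0.0245). *Cav1* did not pass without wild-type replicate 1 (-0.47) or without *Foxq1* cKO replicate 2 (-0.68), and *Tln2* passed in 1 of 4 fits with a sample left out, with -0.64 without wild-type replicate 1. The median log2 fold change of these 30 genes was -0.10. Of 4 listed integrins outside the 46, 0 passed. Of 22 partners and glycosylation enzymes of dystroglycan, *Sntb2*, a syntrophin, was lower, with 1284 and 479 normalized counts in wild-type against 143 and 302 (-1.91, SE 0.66, unadjusted p = 0.0272). It did not pass without wild-type replicate 1 (-1.20) or without *Foxq1* cKO replicate 1 (-1.37).

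Of 28 further matrix proteins, 3 were lower and 2 were higher, beside the same 3.05% and 2.17% of all genes. *Ccn1* and *Ccn2* encode secreted matricellular proteins, and both were lower. *Ccn1* had 9222 and 9084 normalized counts in wild-type, against 5803 and 5310 in *Foxq1* cKO samples, at -0.72 (SE 0.14, unadjusted p = 0.00207), with an adjusted p of 0.0306 in DESeq2. *Ccn2* had 807 and 901 against 349 and 364, at -1.26 (SE 0.36, unadjusted p = 0.0133). *Tnc*, tenascin-C, had 4753 and 3262 against 1912 and 2756, at -0.78 (SE 0.28, unadjusted p = 0.0317), and did not pass without wild-type replicate 1 (-0.51) or without *Foxq1* cKO replicate 1 (-0.51). *Ccn2* did not pass without *Foxq1* cKO replicate 1 (-1.23). The higher genes were *Ltbp4*, which binds latent TGF-β to fibrils, and *Mmrn1*, a multimerin of endothelium and platelets. *Ltbp4* had 2492 and 1908 against 4124 and 4984 normalized counts, at 1.06 (SE 0.22, unadjusted p = 0.00297, adjusted p = 0.0125 in DESeq2). *Mmrn1* had 769 and 533 against 2227 and 1538, at 1.53 (SE 0.34, unadjusted p = 0.00398, adjusted p = 0.0121 in DESeq2). The median over the 28 was 0.16.

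Of 29 further proteases and inhibitors tested, *Htra1*, a serine protease of the vessel wall, was lower, with 3426 and 4228 normalized counts in wild-type, against 1872 and 2786 in *Foxq1* cKO samples (-0.74, SE 0.26, unadjusted p = 0.0286). It did not pass without *Foxq1* cKO replicate 1 (-0.45) or without wild-type replicate 2 (-0.58). The median of this list was -0.27. Of 15 further enzymes of collagen processing, *Pxdn*, the peroxidase that crosslinks collagen IV, was higher, with 3921 and 5001 against 6892 and 5773 (0.51, SE 0.19, unadjusted p = 0.0381). *Pxdn* passed in 1 of 4 fits with a sample left out, and its log2 fold change was 0.335 without wild-type replicate 1. Over these lists 11 of 128 genes tested passed, 8 lower and 3 higher, beside 5.22% of all genes, and the median log2 fold change of the listed genes was -0.06. With eBayes without a trend 3 of the 11 passed (*Ccn2*, *Ltbp4* and *Mmrn1*), with no moderation 4 (*Tns1*, *Ccn1*, *Ccn2* and *Ltbp4*), and scaled to endothelial markers 9, without *Tnc* and *Htra1*. In limma the adjusted p of each of the 11 was 0.857. *Vtn* and *Itga2b* stand in these lists and also among the markers of pericytes and platelets.

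Several members are also made by cells other than ECs, so marker genes of the cell types that a cortical sort could hold were read in each sample. All 12 endothelial markers were listed, led by *Cldn5* with a mean of 137537 normalized counts, and they summed to 386372 and 355815 in wild-type, against 309741 and 347992 in *Foxq1* cKO samples. Both cKO sums were lower, on average 88.6% of wild-type, and *Flt1* was the 1 endothelial marker with an unadjusted p under 0.05 (log2 fold change -0.48, SE 0.19). Of the 12, 7 were lower and 1 (*Cdh5*) higher in both cKO samples, with a median log2 fold change of -0.16. Of all genes tested, 18% were lower and 18% higher in both cKO samples. The endothelial sum was carried mainly by *Cldn5* and *Slc2a1* (mean 88289), whose cKO means were 90.6% and 84.2% of wild-type. Over the 12 markers this share ran from 70.4% for *Flt1* to 108% for *Cdh5*, so a scaling to the sum follows *Cldn5* and *Slc2a1* most. Pericyte markers were also abundant in these sorted samples, with 9 of 13 markers of pericytes and smooth muscle listed and sums of 155649, 153696, 160912 and 146364. *Rgs5* led them at a mean of 90655, and *Acta2*, *Tagln*, *Myh11* and *Cnn1* of smooth muscle are not listed. That does not show that they had no reads, since genes without reads in some sample are left out. These sums overlapped between the groups, with 0 of 9 past the threshold. Scaled to the summed endothelial markers, a setting added after the values were seen, *Nid2* (-0.46), *Fn1* (-0.58) and *Lama5* (1.41) kept an unadjusted p under 0.05, while *Lama4* (-0.31), *Fbln2* (-0.62) and *Sparc* (-0.11) did not, with an unadjusted p of 0.0595, 0.0736 and 0.397 in limma, and *Agrn* passed at 0.37. Of the 27 members with a log2 fold change below 0, 11 turned to values from 0.00694 to 0.173 under it, none of them past the threshold in either fit: *Nid1*, *Sparcl1*, *Itga3*, *Itga6*, *Itgb1*, *Itgb5*, *Dag1*, *Adamts1*, *Timp2*, *Timp3* and *Plod3*. This scaling moved the median of all genes tested to 0.18. It divides all genes of a sample by the same factor, so every fold change shifts nearly alike. The members therefore lay 0.10 under that median with and without it by construction, which is no test of endothelial content.

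Fibroblast markers, of which 6 of 11 were listed with *Col3a1* leading at a mean of 5021, summed to 9448 and 10357 normalized counts in wild-type, against 9740 and 6073 in *Foxq1* cKO samples. The sum was lowest in *Foxq1* cKO replicate 2, and it was carried by *Col3a1* and *Col1a2*. Of the other markers, *Pdgfra* (124 and 213 against 101 and 111), *Slc6a13* (151 and 123 against 116 and 63.1) and *Islr* (507 and 294 against 189 and 274) were lower in both cKO samples. *Col1a1* (319 and 1645 against 756 and 244), *Col1a2* and *Col3a1* overlapped between the groups. Of the 6 fibroblast markers 0 passed the threshold, and their median log2 fold change was -0.64. Counts of markers lower or higher in both cKO samples, here and below, stand beside 18% of all genes tested in each direction. Microglia and macrophage markers were all listed, led by *Csf1r* at a mean of 2316, and summed to 10652 and 12944 against 8198 and 8715, on average 71.7% of wild-type. *Csf1r* was lower at -0.83 (SE 0.23, unadjusted p = 0.0109), and *Mrc1* had 21.9 and 1217 normalized counts in wild-type, against 291 and 132. Of the 13, 3 were lower and 2 (*C1qc* and *Trem2*) higher in both cKO samples, 8 overlapped, and the median log2 fold change was -0.13. Radial glia and astrocyte markers, 10 of 11 listed with *Nes* leading at a mean of 6464, summed to 27363, 26697, 26739 and 23428, and *Gfap* among them was lower at -1.19 (SE 0.25, unadjusted p = 0.00310). Of these 10, 4 were lower and 3 higher in both cKO samples, beside the same 18% of all genes each way, and 3 overlapped. The higher ones were *Aqp4*, *Hopx* and *Nes* (0.43, unadjusted p = 0.0641). *Hopx*, with a mean of 9.17, lay under the minimum mean and was not tested, and the median log2 fold change of the others was -0.32. Neuronal markers, 10 of 14 listed with *Map2* leading at a mean of 1619, summed to 6408, 5877, 4411 and 6158, with a median log2 fold change of -0.35. Platelet markers, 4 of 6 listed with *Itga2b* leading at a mean of 359, summed to 257, 861, 469 and 495, and red cell markers, 6 of 8 listed with *Hba-a1* leading at a mean of 10297, to 20673, 15683, 15841 and 20480. The part of these other cells in the values of the members was not tested.

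**Figure D5:**
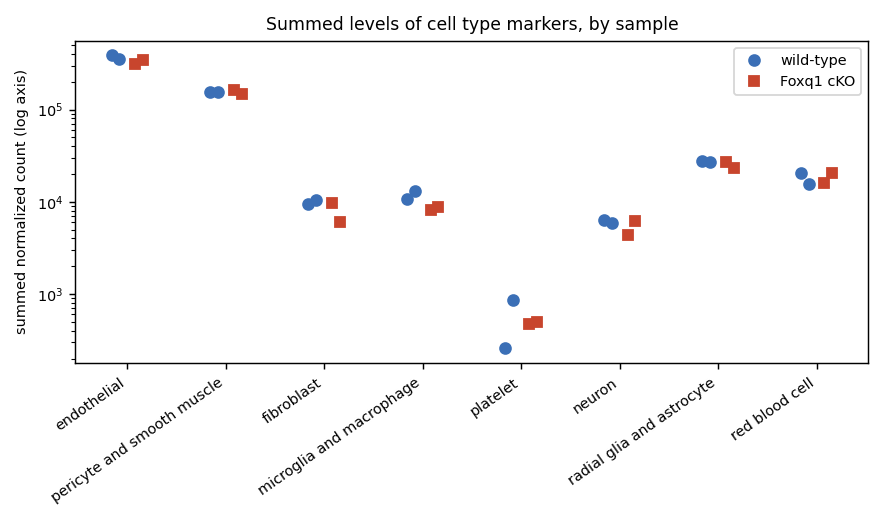
Summed normalized counts of the listed markers of each cell type (vertical axis, log scale) in wild-type (blue circles) and *Foxq1* cKO (red squares) samples. Endothelial markers sum highest and pericyte markers next. The endothelial sums and the microglia and macrophage sums of both *Foxq1* cKO samples lie under those of wild-type.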

How the data were processed

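The RNA-seq samples, 2 wild-type and 2 *Foxq1* cKO, were grouped by their labels. Cells were sorted by FACS with a CD31 antibody and RNA was extracted with Trizol. The submitters' processing notes name Bowtie2 2.2.3, TopHat2 2.0.12, HTSeq 0.6.0 and mm9. Annotation, strand of counting and normalization tool are not given in the sources used here. The deposited signal was the read count per gene divided by 1 size factor per sample (1.19 and 1.00 in wild-type, 0.919 and 0.983 in *Foxq1* cKO), and 100% of values were whole multiples of 1 read within 10% of a read. The 1207361 lines repeat 12693 symbols, none with fewer than 1 read in a sample or 21 in all. Genes without reads in even 1 sample, complete losses among them, are thus not listed. The labels describe libraries made from 2 ug of total RNA and the study's text Smart-seq2, and which of these applies is not settled here. No molecular identifiers are named, so reads may not be independent molecules.

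Values were tested with limma 3.58.1 (trend; R 4.3.3) on log2 (value + 1) at a mean of at least 10, with Benjamini-Hochberg adjustment over all genes. The design had allowed for counts as well, and since the unit was a signal, DESeq2 1.42.0 and edgeR 4.0.16 served as alternatives on the recovered reads. Other alternatives were pseudocounts of 0.1 and 5, no filter, a minimum mean of 50, quantile and TMM scaling, eBayes without a trend, no moderation, the replicate block, each sample left out and, added after the values were seen, scaling to endothelial markers. Members, lists and markers were chosen with earlier results of these data known. Full statistics were given for members with an unadjusted p under 0.05, the largest change in each role, and pathway genes with an unadjusted p under 0.05. Exon lengths and overlaps came from GENCODE M21 (GRCm38) and promoters from RefSeq (GRCm38.p6), whose coordinates were not mixed with mm9. The fit was tested on simulated data. Tables and figures were made with Python 3.11.15, pandas 2.3.3 and matplotlib 3.10.9.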

Additional observations from a re-analysis of the deposited data

How the results depend on the processing

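Of the 6 members with an unadjusted p under 0.05, none changed sign in any of the 12 alternatives with all 4 samples or in the 4 with a sample left out. Their groups did not overlap, so leaving out a sample could not change the sign. The filters, the spread estimates and the replicate block left the fold change as it was, so they could not change the sign either. The count of 6 became 2 with eBayes without a trend (1 lower) and 3 without moderation (2 lower), and at an adjusted p under 0.05 DESeq2 called 1 member and 59 of all genes against 0 in limma and edgeR. Scaled to endothelial markers, 2 members were lower and 2 higher, 186 of all genes lower and 470 higher, and the member median was 0.0795 (from -0.10) while the median of all genes was 0.18. The member median was -0.14 in DESeq2 and in edgeR.

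With each sample left out, the members called ranged from 3 to 8, 3 to 6 of them lower and 0 to 2 higher, and the member median from -0.12 to -0.11. Over all genes the calls ranged from 276 to 1569, 210 to 586 lower and 66 to 983 higher. *Fbln2* passed in 1 of these 4 fits, *Sparc* in 1, *Lama5* in 2, *Lama4* in 3, and *Nid2* and *Fn1* in 4. With 1 sample left in a group, its spread was assumed to be that of the other group. *Tgfbi* changed sign in DESeq2 (-0.0711), in edgeR (-0.0744) and without wild-type replicate 1, and *Timp3* did so without wild-type replicate 2. Of the 43 members, 11 turned from below to above 0 scaled to endothelial markers, *Timp3* (0.00694) among them, 2 changed sign in DESeq2 and in edgeR (*Tgfbi* and *Thbs1*), 2 under quantile normalization (*Thbs1* and *Itgb1*) and 3 to 7 with a sample left out. With a sample left out, *Tgfbi* ranged from -1.03 to 2.57 and *Timp3* from -0.385 to 0.0477.

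The labels do not say whether samples that share a replicate number were paired. Same-numbered deviations from the group means correlated at 0.03 over genes, which cannot settle it. With the replicate block 8 members were called, the 6 and also *Lama1* and *Lamb1*. With 2 samples a group no member passed adjustment in limma, and members with a mean under 1000 had a median SE of 0.54 on the log2 scale.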
